A study of Mus musculus with 5 samples.

Results

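The chemokine genes Cxcl12, Cxcl14, Ccl11, Cxcl1, Ccl2, Ccl7 and Ccl8 were followed through sorted interstitial cells of the adult mouse heart. They were taken as a named list, 7 genes of the 17902 listed in any of the 5 deposited tables. Each gene was read per library over all cells, and then within cells gated on a single marker transcript: Pdgfra for fibroblasts, Rbp7 for capillary endothelium, Npr3 for endocardium and Csf1r for macrophages. All 7 are listed in 4 libraries, and Ccl11 and Ccl8 are not listed in the remaining one, cKit+/DDR2- replicate 1. An unlisted gene was set to 0 and may hide UMIs in up to 2 cells.

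Hearts were digested with collagenase II, cardiomyocytes were removed, and the remaining cells were sorted on surface cKit (a receptor tyrosine kinase), DDR2 (a collagen receptor of fibroblasts) and CD45 (a phosphatase of leukocytes). The 4 sorts were cKit-/DDR2+ (1 library, 2280 cells), cKit+/DDR2- (2 libraries, 436 cells in replicate 1 and 3020 in replicate 2), cKit+/DDR2+/CD45- (1 library, 1327 cells) and cKit+/DDR2+/CD45+ (1 library, 3707 cells used). The labels give the animals as adult mice and name no strain, genotype, treatment or number of hearts, and do not say which libraries came from the same hearts. The study asked how the transcriptomes of these sorts differ. Transcripts were counted from their 3' ends as unique molecular identifiers (UMIs, 1 per captured molecule), and levels are given as CPM, the UMIs of a gene per 1000000 UMIs of the same cells.

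Chemokines are small secreted proteins that bind G protein-coupled receptors and matrix sugars and guide the movement of leukocytes and other cells. Their classes are named for the first conserved cysteines, which are adjacent in CC chemokines and parted by another residue in CXC chemokines. In the heart, CXCL12 with its receptor CXCR4 takes part in coronary vessel growth and the retention of progenitors, CCL2 and CCL7 draw in monocytes through CCR2, CXCL1 draws in neutrophils through CXCR2, and CCL11 draws in eosinophils through CCR3.

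The class of each member can be read from the coding sequence around that cysteine motif, shown here because it is what parts the list into its CXC and CC genes. Each line gives 27 coding bases from the reference transcript (GRCm38, GENCODE M21), 5' to 3', with the cysteine codons in capitals.
Cxcl12: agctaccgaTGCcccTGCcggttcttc
Cxcl14: gggtccaagTGTaagTGTtcccggaag
Cxcl1: gagctgcgcTGTcagTGCctgcagacc
Ccl11: ccaacttccTGCTGCtttatcatgacc
Ccl2: ccactcaccTGCTGCtactcattcacc
Ccl7: gcatccacaTGCTGCtatgtcaagaaa
Ccl8: ccagtcaccTGCTGCtttcatgtacta
In Cxcl12, Cxcl14 and Cxcl1 another codon stands between the cysteine codons, while in Ccl11, Ccl2, Ccl7 and Ccl8 the codons are adjacent. The CC genes lie near each other on the plus strand of chromosome 11, with Ccl12 (chr11:82101845-82103400), a further CC chemokine gene, between Ccl11 and Ccl8: Ccl2 at chr11:82035571-82037453, Ccl7 at chr11:82045712-82047525, Ccl11 at chr11:82057823-82062955 and Ccl8 at chr11:82115185-82116799, each with 3 exons. The CXC genes lie apart, with 4 exons each: Cxcl12 at chr6:117168535-117181367 (plus strand), Cxcl14 at chr13:56288643-56296551 (minus strand) and Cxcl1 at chr5:90891241-90893115 (plus strand). Coding sequences of the CC members were 49.4% (Ccl2 and Ccl8) to 67.7% (Ccl7 and Ccl11) identical. No exact stretch longer than 12 bases was shared by any pair of the CC members within the last 500 bases of their transcripts, the part that 3' counting reads.

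The libraries differed in ways that touch the values below. Of the 436 barcodes of cKit+/DDR2- replicate 1, 190 also appeared in cKit+/DDR2+/CD45+, there with a median of 5.21% of the UMIs, and in all 190 the most alike profile in the first library was that of the same barcode. They were removed from cKit+/DDR2+/CD45+, and no count of called members below moved by over 1.5 times when they were kept. Any other pair of libraries shared at most 3 barcodes. Libraries held 4047326 to 44721895 UMIs, with medians of 7529 to 11153 per cell. Xist, transcribed from the inactive X chromosome, stood at 496 and 757 CPM in cKit+/DDR2- replicate 2 and cKit+/DDR2+/CD45- and at 0.0671 CPM or less in the other 3 libraries. Ddx3y, a gene of the Y chromosome, had no UMI in that pair and 58.7 to 98.6 CPM in the other 3, so the 2 sets held cells of female and of male mice and do not share animals. Gm42418 took 9.09% and 10.6% of UMIs in the same pair against at most 1.39% elsewhere. In a comparison between these sets sex and sort cannot be told apart, and the 2 cKit+/DDR2- libraries lie in different sets. Only cKit+/DDR2- has a second library, so sorts were compared without a statistical test. Differences are log2 ratios after adding 1 CPM, called at 2-fold where the higher side held at least 50 CPM and 20 UMIs, and both cKit+/DDR2- libraries had to be 2-fold apart on the same side. Ranges in brackets are exact 95% intervals that cover counting error only, unless they are said to run over libraries.

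Over whole libraries the members fell into separate patterns. Cxcl12 stood at 917 CPM in cKit-/DDR2+, 636 in cKit+/DDR2+/CD45-, 224 and 101 in cKit+/DDR2- replicates 1 and 2, and 22.1 in cKit+/DDR2+/CD45+. Cxcl14 had 323 CPM in cKit-/DDR2+ and between 3.35 and 19.6 CPM in every other library. Ccl11 had 102 CPM in cKit-/DDR2+, 2.81, 1.09 and 0.246 CPM in cKit+/DDR2- replicate 2, cKit+/DDR2+/CD45- and cKit+/DDR2+/CD45+, and was not listed in replicate 1. The library sorted as cKit-/DDR2+ was thus the highest for these 3 genes, as it was for Cxcl1.

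Cxcl1 stood at 349 CPM in cKit-/DDR2+, 206 in cKit+/DDR2+/CD45+, 119 and 38.8 in cKit+/DDR2- replicates 2 and 1, and 37.0 in cKit+/DDR2+/CD45-. In replicate 1, a single cell held 111 of the 157 Cxcl1 UMIs, and the level without it was 11.5 CPM. Ccl2 was highest in cKit+/DDR2+/CD45+, with 792 CPM, against 136 and 32.9 in cKit+/DDR2- replicates 2 and 1, 15.3 in cKit+/DDR2+/CD45- and 89.7 for cKit-/DDR2+. Ccl7 followed with 179.9 CPM in cKit+/DDR2+/CD45+, 91.3 in cKit-/DDR2+, 33.0 and 2.96 in replicates 2 and 1, and 0.586 in cKit+/DDR2+/CD45-. Ccl8 reached 28.0 CPM in cKit+/DDR2+/CD45+ and 3.13 to 3.94 CPM in the other libraries that list it. The leukocyte sort was therefore the highest library for Ccl2, Ccl7 and Ccl8. In such sums over cells, fewer cells of a type and less RNA per cell cannot be told apart.

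**Figure D1:**
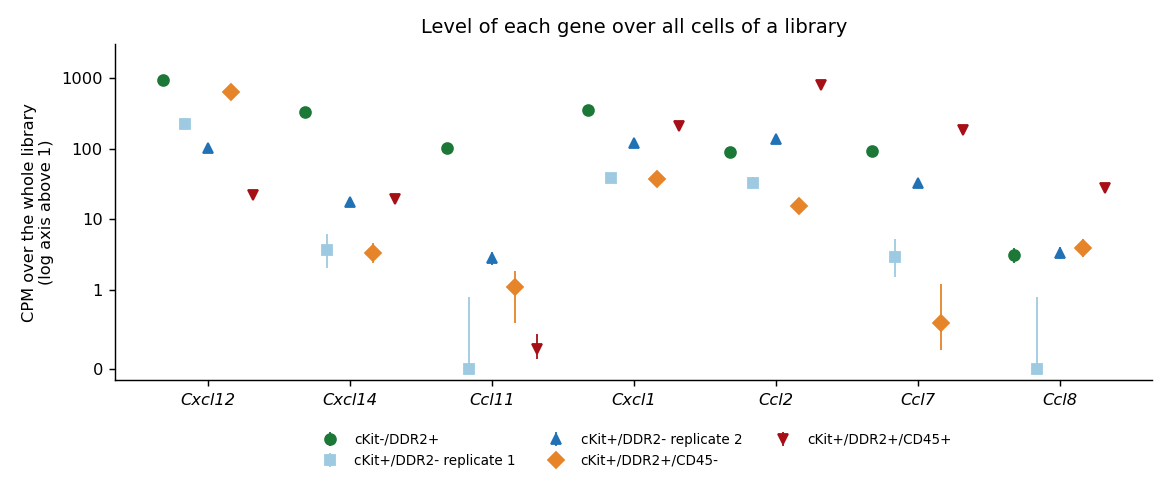
Level of each gene summed over all cells of a library, in CPM on an axis that is logarithmic above 1, with the 5 libraries as points and bars for the 95% Poisson intervals. Cxcl12, Cxcl14, Ccl11 and Cxcl1 are highest in cKit-/DDR2+ (917, 323, 102 and 349 CPM), and Ccl2, Ccl7 and Ccl8 in cKit+/DDR2+/CD45+ (792, 179.9 and 28.0 CPM).

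Parting the double-positive cells by CD45 set the members against each other. In cKit+/DDR2+/CD45+ against cKit+/DDR2+/CD45-, 4 members passed the minimum and all 4 were called, beside 41.3% of the 3836 genes that passed. Ccl7 (6.83; 7.22 to 9.58 without the added CPM), Ccl2 (5.60) and Cxcl1 (2.45) were higher in the CD45+ cells, as were 18.5% of genes, while Cxcl12 was lower (-4.79; -4.95 to -4.75), as were 22.8%. Against cKit-/DDR2+, 5 of 6 members were called lower in cKit+/DDR2+/CD45-, beside 9.77% of all genes tested (17.2% in either direction), among them Cxcl1 (-3.20; -3.38 to -3.10) and Ccl2 (-2.47; -2.78 to -2.33). Cxcl12 was the exception, at -0.53 (-0.57 to -0.49).

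Between cKit+/DDR2- and cKit-/DDR2+, 5 of 6 members were called lower in cKit+/DDR2-, beside 8.1% of all genes tested (14.3% in either direction): Ccl11 (-5.42), Cxcl14 (-4.81), Cxcl12 (-2.49), Ccl7 (-2.28) and Cxcl1 (-2.13). Ccl2 differed by -0.09, a mean of opposite directions, with -1.42 for replicate 1 and 0.59 for replicate 2. Between cKit+/DDR2+/CD45- and cKit+/DDR2-, 2 of 3 members were called, beside 3.68% of genes: Cxcl12 higher, as 0.927% of genes were, and Ccl2 lower, as 2.75% were, at -2.39 (-3.07 to -1.05 over the 2 libraries). Cxcl1 was past 2-fold against replicate 2 (-1.66) but not against replicate 1 (-0.07). Ccl2 had 32.9 CPM in replicate 1, under the minimum of 50 CPM. The 2 cKit+/DDR2- libraries themselves were 2-fold apart in all 3 members that passed, beside 8.94% of genes: Ccl2 (2.01) and Cxcl1 (1.60) were higher in replicate 2, as were 4.45% of genes, and Cxcl12 (-1.15) was lower, as were 4.48%. Fibroblast-gated cells made up 34.0% of cKit-/DDR2+, 4.30% of cKit+/DDR2- replicate 2 and 2.79% of cKit+/DDR2+/CD45-, and macrophage-gated cells 89.9% of cKit+/DDR2+/CD45+, 17.4% of replicate 2 and none of the 1327 cells of cKit+/DDR2+/CD45-.

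Gating the cells showed that the list holds genes of 3 different cell types, so the name of stromal chemokine genes covers part of it. A gate took cells with at least 2 UMIs of its marker and at most 1 of each other gate marker, and was used with 50 or more cells. Every gate used held all of its own marker genes above 0, from Dcn, Gsn, Col1a1, Col3a1, Lum and Mfap5 in the fibroblast gate to C1qa, C1qb, C1qc, Adgre1, Cd68 and Fcgr1 in the macrophage gate. Being above 0 does not part the gates, since markers of 1 type were also seen in others. In cKit-/DDR2+, Dcn had 22074 CPM in the fibroblast gate and 410 in the capillary gate. In replicate 2 it had 16208 CPM in the fibroblast gate and 2352 in the endocardial gate. By the mean over libraries, the fibroblast gate led for Cxcl14, Ccl11 and Cxcl1, the capillary gate for Cxcl12, and the macrophage gate for Ccl2, Ccl7 and Ccl8. The same gates led by the share of cells with a UMI, at 1000 and at 2000 UMIs per cell.

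**Figure D2:**
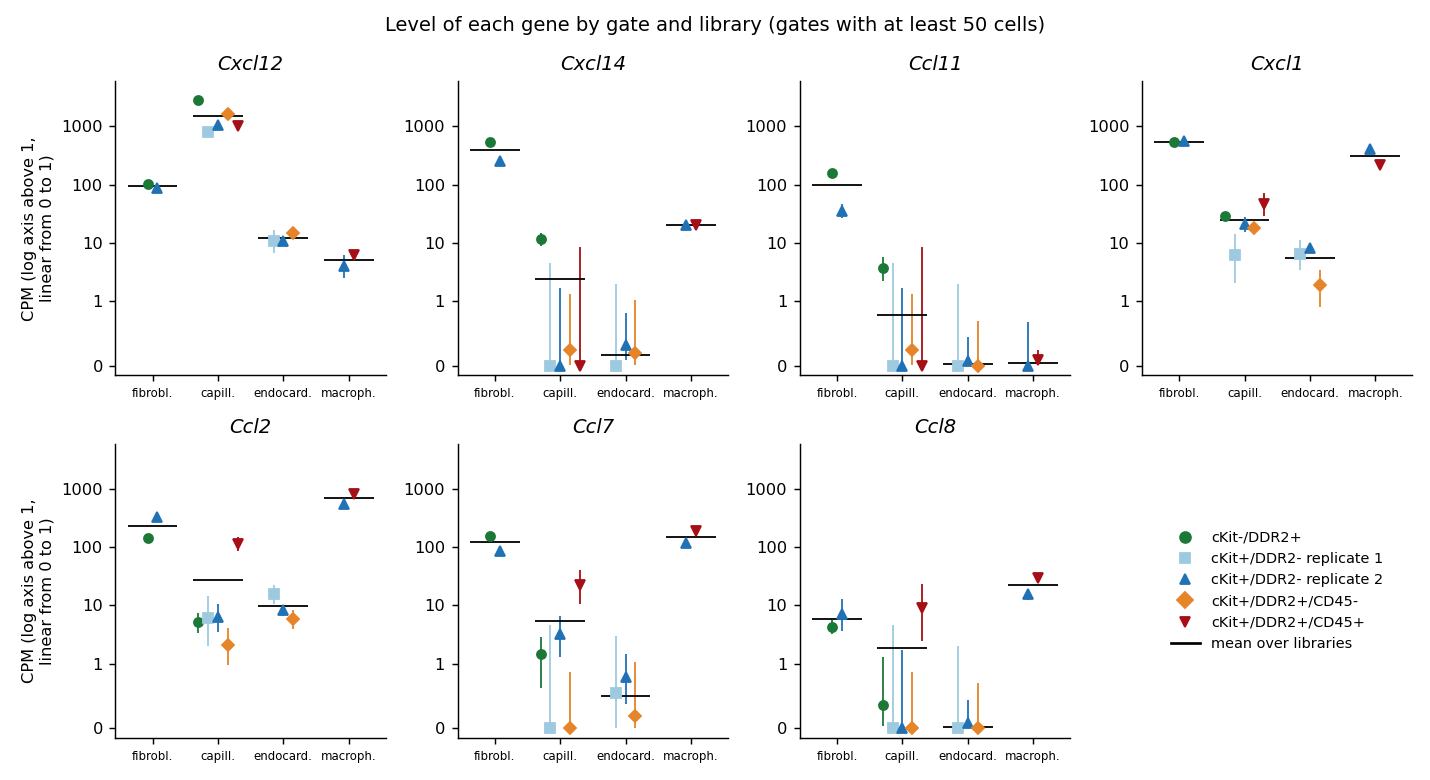
Level of each gene in each gate and library, in CPM on an axis that is logarithmic above 1; points are libraries with at least 50 cells in the gate, bars 95% Poisson intervals and black lines means over libraries. Cxcl12 is highest in the capillary gate (785 to 2885 CPM), Cxcl14, Ccl11 and Cxcl1 in the fibroblast gate, and Ccl2 and Ccl8 in the macrophage gate, while the fibroblast and macrophage ranges of Ccl7 overlap.

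Cxcl12, the ligand of CXCR4 and of the scavenging receptor ACKR3, was a capillary gene in these libraries. In the capillary gate it had 2885 CPM in cKit-/DDR2+, 785 and 1073 in cKit+/DDR2- replicates 1 and 2, 1616 in cKit+/DDR2+/CD45- and 1033 in cKit+/DDR2+/CD45+ (mean 1478 ± 843, SD, n = 5 libraries of 4 sorts). It had 102 and 88.0 CPM in the fibroblast gate (cKit-/DDR2+ and cKit+/DDR2- replicate 2), 10.5 to 14.9 CPM in the endocardial gate over 3 libraries, and 4.004 and 6.09 CPM in the macrophage gate. No library of the capillary gate overlapped with any of another gate. In each of the 2 libraries that hold both gates, fibroblasts lay below capillary cells, by a log2 ratio of -4.80 and -3.59. Lymphatic cells, gated on Mmrn1, had 155 and 90.8 CPM in replicates 1 and 2, a range that overlaps with the fibroblast gate.

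The capillary gate held most of the Cxcl12 UMIs of 4 libraries. It gave 82.9% of them in cKit-/DDR2+ from 26.4% of the library's UMIs, 70.2% and 78.7% in cKit+/DDR2- replicates 1 and 2 from 20.05% and 7.40%, and 89.9% in cKit+/DDR2+/CD45- from 35.4%. In cKit+/DDR2+/CD45+ it gave 46.5% of Cxcl12 UMIs from 0.993% of all UMIs, and macrophages gave 25.8%. At 1000 UMIs per cell, Cxcl12 was seen in 77.3% of capillary cells of cKit-/DDR2+ (74.5 to 79.9), 40.7% and 45.7% in cKit+/DDR2- replicates 1 and 2, 60.6% in cKit+/DDR2+/CD45- and 59.3% in cKit+/DDR2+/CD45+. In the macrophage gate, which gives a background, the share was 0.381% and 0.602%. Without thinning, 95.6% of the capillary cells of cKit-/DDR2+ held a Cxcl12 UMI at a median depth of 5407 UMIs, against 6.03% of macrophages of cKit+/DDR2+/CD45+ at 11327.5.

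Among capillary cells, the level of Cxcl12 differed between sorts. It was lower in cKit+/DDR2- than in cKit-/DDR2+ by a log2 ratio of -1.63 (-1.88 to -1.43 over the 2 libraries), the 1 member of 1 that passed and was called, beside 1.19% of genes called lower (3.74% in either direction). It was lower in cKit+/DDR2+/CD45+ than in cKit-/DDR2+ as well (-1.48; -1.62 to -1.35), where 2 of 2 members were called beside 8.37% of genes (4.35% lower and, as Ccl2 was by 4.24, 4.01% higher). The other differences were not called: -0.84 for cKit+/DDR2+/CD45- against cKit-/DDR2+ (0 of 1 member called, beside 3.22% of genes), 0.80 for cKit+/DDR2+/CD45- against cKit+/DDR2- (0.59 against replicate 2 and 1.04, past 2-fold, against replicate 1; 0 of 1, beside 2.15%) and -0.64 for cKit+/DDR2+/CD45+ against cKit+/DDR2+/CD45-. Replicates 1 and 2 differed by 0.45 (0.32 to 0.58; 0 of 1 member called, beside 4.09%). Lymphatic markers were higher in the capillary gates of the 4 other libraries than in that of cKit-/DDR2+. The 5 markers, all above 0, summed to 54.2 CPM in cKit-/DDR2+ and to 11223 and 8251 in replicates 1 and 2. They summed to 2675 in cKit+/DDR2+/CD45- and 1807 in cKit+/DDR2+/CD45+. Their part in the Cxcl12 differences was not tested.

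Leaving out the capillary-gated cells with 2 or more UMIs of Mmrn1, an alternative chosen after seeing the data, removed 3, 31, 62, 32 and 2 cells of the 5 libraries in the order given above. Cxcl12 then stood at 2899, 1149, 1398, 1761 and 1085 CPM, and the difference between cKit+/DDR2- and cKit-/DDR2+ at -1.19, still past 2-fold. Cells with a UMI of Apln, a gene of tip and angiogenic endothelial cells, had less Cxcl12 in each of the 4 libraries with at least 20 cells of both kinds, a split made after values were seen. The Apln cells had 1014 CPM against 3064 in cKit-/DDR2+, 645 against 854 and 768 against 1125 in cKit+/DDR2- replicates 1 and 2, and 697 against 1910 in cKit+/DDR2+/CD45-. Cells with an Apln UMI were the deeper ones in all 4, with medians of 6792 to 10156 UMIs against 5315 to 6568, and depth and Apln cannot be told apart in this split.

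Cxcl14, a chemokine of barrier tissues and fibroblasts with no agreed receptor, was carried by the fibroblast gate. It had 533 CPM (519 to 546) in cKit-/DDR2+ and 255 (230 to 281) in cKit+/DDR2- replicate 2. The macrophage gate had 20.02 and 20.44 CPM in replicate 2 and cKit+/DDR2+/CD45+, and the endocardial gate at most 0.319 CPM. In the capillary gate it had 11.5 CPM in cKit-/DDR2+, 0.237 in cKit+/DDR2+/CD45- and 0 UMIs in the other 3 libraries. Fibroblasts lay above macrophages, and macrophages above capillary and endocardial cells, with no overlap.

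The capillary value of cKit-/DDR2+ was 2.16% of that library's fibroblast value, and the 6 fibroblast markers stood at 1.86% to 2.92% of theirs in the same cells, so it was within their range. The macrophage value was above the range of those markers: in replicate 2 it was 7.86% of the fibroblast value, while the 6 fibroblast markers stood at 0.0884% to 0.660% of theirs. At 1000 UMIs per cell, Cxcl14 was seen in 17.3% of fibroblasts of cKit-/DDR2+ (14.7 to 20.1) and 7.69% of those of replicate 2 (3.75 to 13.7), and in 2.67% (1.47 to 4.43) and 2.11% (1.65 to 2.65) of macrophages. Most fibroblasts held none even at full depth, where 33.2% had a UMI, and the tenth of cells with the most held 77.8% of Cxcl14 UMIs in cKit-/DDR2+.

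Ccl11, known as eotaxin, was seen mainly in the fibroblast gate, which held 85.3% of its UMIs in cKit-/DDR2+ and 65.1% in cKit+/DDR2- replicate 2, with 159 CPM (152 to 167) in cKit-/DDR2+ and 35.7 (26.8 to 46.6) in cKit+/DDR2- replicate 2. Capillary cells of cKit-/DDR2+ had 3.65 CPM, which is 2.29% of the fibroblast value and so again within the range of the fibroblast markers. In the other gates with 50 or more cells there was at most 1 Ccl11 UMI, apart from 4 UMIs in the 3332 macrophages of cKit+/DDR2+/CD45+ (0.0955 CPM). The tenth of fibroblasts with the most UMIs held 90.7% of its UMIs in cKit-/DDR2+, an even narrower spread over cells than that of Cxcl14. At 5000 UMIs per cell, Ccl11 was seen in 16.3% of Cxcl14-positive and 16% of Cxcl14-negative fibroblasts of cKit-/DDR2+. In replicate 2 it was seen in 4 of 13 Cxcl14-positive fibroblasts (30.8%) and 5.26% of Cxcl14-negative ones, so the 2 libraries differed in how far the genes were seen together.

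Cxcl1, the neutrophil chemoattractant, was widespread in fibroblasts and reached macrophages too. The fibroblast gate had 539 CPM (526 to 553) in cKit-/DDR2+ and 552 (515 to 590.3) in cKit+/DDR2- replicate 2 (mean 545 ± 8.72, SD, n = 2), and the macrophage gate 405 in replicate 2 and 214 in cKit+/DDR2+/CD45+. Capillary cells had 6.16 to 47.3 CPM and endocardial cells 1.89 to 8.14 CPM. The gates kept this order with no overlap between fibroblasts, macrophages and capillary cells. At 1000 UMIs per cell, 29.6% and 33.1% of fibroblasts held a Cxcl1 UMI, against 20.6% and 12.8% of macrophages. The tenth of fibroblasts with the most UMIs held 50.8% of them in cKit-/DDR2+, a wider spread over cells than for Cxcl14 or Ccl11.

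**Figure D3:**
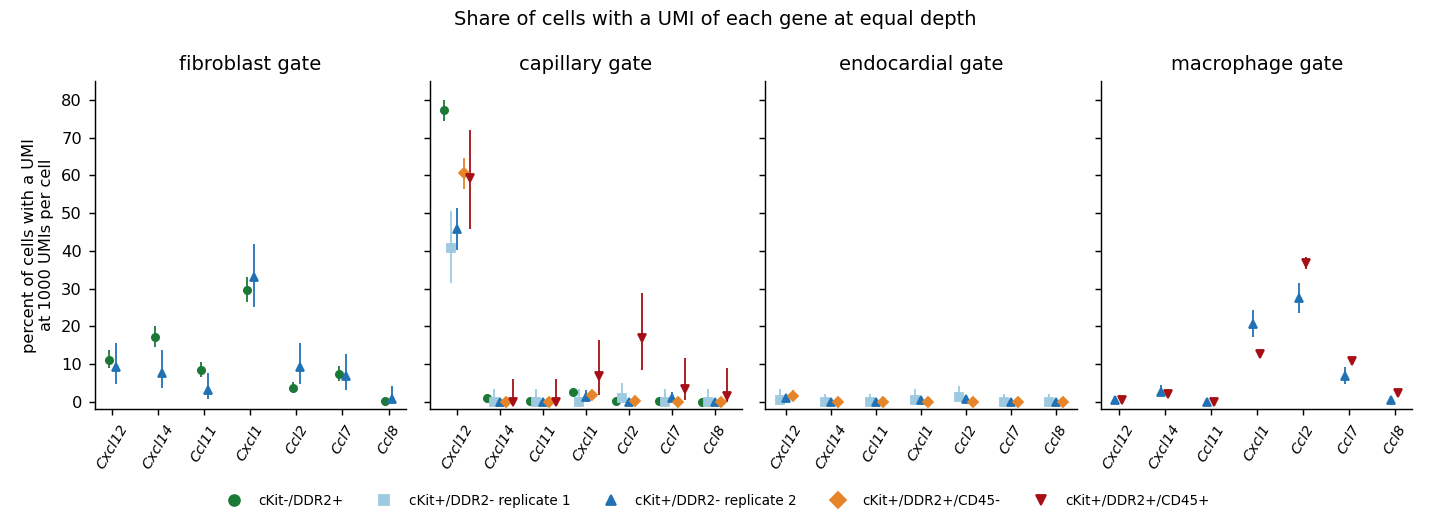
Percent of cells with a UMI of each gene after thinning every cell to 1000 UMIs, by gate and library, with exact 95% intervals. Cxcl12 is seen in 40.7% to 77.3% of capillary cells, Cxcl1 in 29.6% and 33.1% of fibroblasts, and Ccl2 in 27.4% and 36.9% of macrophages.

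Ccl2, the main ligand of CCR2, was highest in macrophages and lower but present in fibroblasts. The macrophage gate had 563 CPM in cKit+/DDR2- replicate 2 and 829 in cKit+/DDR2+/CD45+, and the fibroblast gate 143 in cKit-/DDR2+ and 327 in replicate 2. A single cell held 209 of the 494 Ccl2 UMIs of the fibroblast gate of replicate 2, and the level without it was 190.1 CPM. Capillary and endocardial cells had 2.13 to 15.6 CPM except in cKit+/DDR2+/CD45+, where capillary cells had 115 CPM (85.5 to 151). At 1000 UMIs per cell, 27.4% and 36.9% of macrophages held a Ccl2 UMI (replicate 2 and cKit+/DDR2+/CD45+), against 3.61% and 9.23% of fibroblasts. The macrophage range lay above that of every other gate.

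The capillary value of cKit+/DDR2+/CD45+ made Ccl2 the only member called higher there, in cKit+/DDR2+/CD45+ against cKit+/DDR2+/CD45- (5.21; 4.72 to 6.96; 1 of 2 members, beside 4.22% of genes called higher and 7.51% in either direction) and against cKit+/DDR2- (3.99; 1 of 2, beside 2.76% higher and 6.76% in either direction). It rests on 64 cells and 51 UMIs. Macrophage markers moved with it: in these capillary cells C1qa had 425 CPM, and the 6 markers stood at 6.49% to 18.4% of their macrophage level, beside 13.9% for Ccl2, 11.95% for Ccl7 and 22.0% for Cxcl1. Only Fcgr1, on 8 UMIs, stood above the share for Ccl2. The markers with the most UMIs there, C1qa, C1qb and C1qc (189, 131 and 82), stood lower, at 7.02% to 7.83%. Cxcl1 and Ccl8 (30.6%, on 4 UMIs) lay above the range of the markers. The part of macrophage RNA in these values was not tested.

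Ccl7, another CCR2 ligand, was shared by macrophages and fibroblasts. It had 117 CPM in the macrophage gate of cKit+/DDR2- replicate 2 and 188 in that of cKit+/DDR2+/CD45+, and 155 and 87.3 CPM in the fibroblast gate of cKit-/DDR2+ and replicate 2. The ranges of the 2 gates overlapped, and in replicate 2, the 1 library with enough cells of both, macrophages were above fibroblasts by less than 2-fold. Shares at 1000 UMIs per cell were as close, with 6.86% and 10.7% of macrophages and 7.35% and 6.92% of fibroblasts. Ccl8, in mice a ligand of CCR8, was the weakest member, with 15.7 and 29.4 CPM in the macrophage gate and 4.33 and 7.27 CPM in the fibroblast gate, under the minimum of 50 CPM in each gate and library used. In cKit+/DDR2+/CD45+ the tenth of macrophages with the most Ccl8 held 96.2% of its UMIs, against 51.2% for Ccl2.

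Where each UMI came from shows how the whole-library levels were made up. In cKit-/DDR2+ the fibroblast gate, with 54.5% of all UMIs, held 92.5% of Ccl7, 89.9% of Cxcl14, 86.8% of Ccl2 and 84.1% of Cxcl1 UMIs. In cKit+/DDR2- replicate 2 it held 5.12% of all UMIs but 74.6% of Cxcl14 and 23.7% of Cxcl1, while the macrophage gate, with 18.6% of all UMIs, held 77.1% of Ccl2, 66.0% of Ccl7 and 63.2% of Cxcl1. Cxcl1 thus came from both gates there. In cKit+/DDR2+/CD45+ macrophages held 93.6% of all UMIs and 97.3% to 98.0% of those of Cxcl14, Ccl2, Ccl7 and Cxcl1. In cKit+/DDR2+/CD45-, 51.1% of Cxcl1 UMIs lay in 37 fibroblast-gated cells and 53.0% of Ccl2 UMIs in 46 lymphatic cells, where 1 cell held 72 of the 97.

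Set side by side within a library, fibroblasts exceeded the endothelial gates in every member that passed except Cxcl12 against capillary cells. Against the capillary gate 4 of 5 members were higher in both libraries and 1, Cxcl12, was lower, beside 12.4% of genes called higher, 16% lower and 28.4% in either direction. Ccl7 (5.19; 4.39 to 5.99 over libraries), Ccl2 (5.01; 4.56 to 5.47) and Cxcl1 (4.41; 4.17 to 4.65) were 3 of the higher ones, and Cxcl14 was higher by 5.42 in cKit-/DDR2+. Against the endocardial gate, compared in replicate 2 only, 5 of 5 were higher, beside 14% of genes (28.8% in either direction), from Cxcl12 (2.95) to Cxcl14 (7.60). The median over these members was 5.62, and 0.02 over all genes tested. With gates of 30 cells allowed, which brings in 37 fibroblasts of cKit+/DDR2+/CD45-, 2 members in place of 4 were higher than in capillary cells and 3 in place of 5 than in endocardial cells.

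Against macrophages of replicate 2, 2 of 5 members were higher in fibroblasts, beside 22% of genes (40.6% in either direction): Cxcl12 (4.15) and Cxcl14 (3.60). Cxcl1 (0.44), Ccl7 (-0.42) and Ccl2 (-0.78) were less than 2-fold apart. Without the highest cell of each gate, an alternative added after seeing the data, Ccl2 stood at -1.52 and passed 2-fold. Ccl11 did not reach 50 CPM in replicate 2, where fibroblasts had 35.7 CPM and macrophages no UMI.

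Between fibroblasts of different sorts, Cxcl14 and Ccl11 differed and Cxcl1 stood at nearly the same level. Comparing cKit+/DDR2- replicate 2 (130 cells) with cKit-/DDR2+ (776 cells), 3 of 6 members were called, beside 2.16% of the 3235 genes tested. Ccl11 (-2.13; -2.58 to -1.77) and Cxcl14 (-1.06; -1.22 to -0.92) were lower in replicate 2, as 1.14% of genes were, and Ccl2 (1.19; 1.05 to 1.34) was higher, as 1.02% were. Without the highest cell of each member, Cxcl14 stood at -1.36 and Ccl2 at 0.55, no longer 2-fold. Ccl7 (-0.82), Cxcl12 (-0.22; -0.49 to 0.04) and Cxcl1 (0.03; -0.07 to 0.14) were not called. Marker sums of the fibroblasts themselves were 47707 CPM in replicate 2 and 63570 in cKit-/DDR2+, those of macrophages 80.7 and 1.77 CPM and those of lymphatic cells 324 and 65.0 CPM, with all 6, 5 of 6, all 5 and all 5 markers above 0 in turn. Their part in the differences was not tested, and these libraries differ in sex as well as in sort.

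The macrophage gates of cKit+/DDR2+/CD45+ and cKit+/DDR2- replicate 2 stayed within 2-fold in each member that passed. None of 3 was called, beside 1.33% of genes: Ccl7 at 0.68 (0.57 to 0.80) and Ccl2 at 0.56 (0.50 to 0.61) were higher in cKit+/DDR2+/CD45+, and Cxcl1 at -0.92 (-0.99 to -0.85) was lower. Marker sums of macrophages were 13259 and 11860 CPM. Of 13 genes of the early response to dissociation, Hspa1a (686 against 2309 CPM) and Hspa1b (251 against 1147 CPM) were called lower in cKit+/DDR2+/CD45+, and the other 11 were not called. Their part in the Cxcl1 level was not tested. In the endocardial gate no member reached the minimum in any library, so none was called in cKit+/DDR2+/CD45- against cKit+/DDR2-, beside 0.193% of genes, nor between the 2 cKit+/DDR2- libraries, beside 2.5%.

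Within fibroblasts, the summed levels of most members were higher in cells without Pi16. Pi16 marks the adventitial, progenitor-like fibroblasts of many tissues. In cKit-/DDR2+, 180 cells with no Pi16 UMI had 1049 CPM of Cxcl14 against 410.2 in 596 cells with Pi16, 997 against 431 of Cxcl1, 295 against 127 of Ccl11 and 274 against 112 of Ccl2. In replicate 2, with 30 and 100 cells, the same genes had 342 against 232, 674 against 520.3, 58.6 against 29.9 and 358 against 319 CPM. The direction of the levels held in both libraries for these 4 genes, and also for Ccl7 (184 against 148, and 108 against 82.1) and Cxcl12 (146 against 92.0, and 104 against 83.8). The share of cells with a UMI ran the other way for Ccl2 and Ccl7 in both libraries. In cKit-/DDR2+, Ccl2 was seen in 26 of the 180 cells without Pi16 and 106 of the 596 with it. In replicate 2, Ccl2, Ccl7 and Ccl11 were each seen in 4 of the 30 cells without Pi16. Counting intervals overlapped there for Ccl2 (295 to 432 against 288 to 352), Ccl7, Ccl11 and Cxcl12, and were apart for Cxcl14 and Cxcl1. Such intervals leave out the spread between cells. In replicate 2, Cxcl14 was seen in 8 of the 30 cells without Pi16 and 12 of the 100 with it. Of the 384 Ccl2 UMIs of those 100 cells, 1 cell held 209. The level of Ccl8 was instead lower in the cells without Pi16, on 5 UMIs and 0 UMIs. Cells without Pi16 were the shallower ones, with medians of 12287.5 against 15017 UMIs in cKit-/DDR2+. Among Pi16 cells alone, Cxcl14 had 410.2 and 232 CPM in the 2 libraries, less than 2-fold apart, so that its call was lost, and Ccl11 had 127 and 29.9 CPM, more than 2-fold apart.

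Macrophages were split by Folr2, a folate receptor of resident macrophages, and Ccr2, the receptor of monocyte-derived cells. In cKit+/DDR2+/CD45+, the 2362 Folr2 cells had 915 CPM of Ccl2 against 539 in the 390 cells with Ccr2 and no Folr2, 217 against 95.1 of Ccl7, 37.3 against 5.44 of Ccl8 and 223 against 160.4 of Cxcl1. In replicate 2, with 230 and 136 cells, the values were 784 against 284, 165 against 36.7, 27.9 against 8.15 and 490.0 against 226 CPM. In both libraries these 4 chemokines were higher in the Folr2 cells than in the cells with Ccr2 and no Folr2. Cxcl14 ran the other way in both, with 12.3 against 40.9 CPM and 10.3 against 23.1 CPM. Cells with neither gene had 45.3 and 35.0 CPM of Cxcl14, 628 and 442 of Ccl2, 119 and 111 of Ccl7, and 9.38 and 0.714 of Ccl8. Their Cxcl1 was 214 and 435 CPM, nearer to the Folr2 cells than to the Ccr2 cells. In cKit+/DDR2+/CD45+ its counting interval overlapped with that of the Folr2 cells (202 to 226 against 218 to 229). Median depths were 11673 and 11923 UMIs in cKit+/DDR2+/CD45+ and 11100.5 and 9847 in replicate 2.

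**Figure D4:**
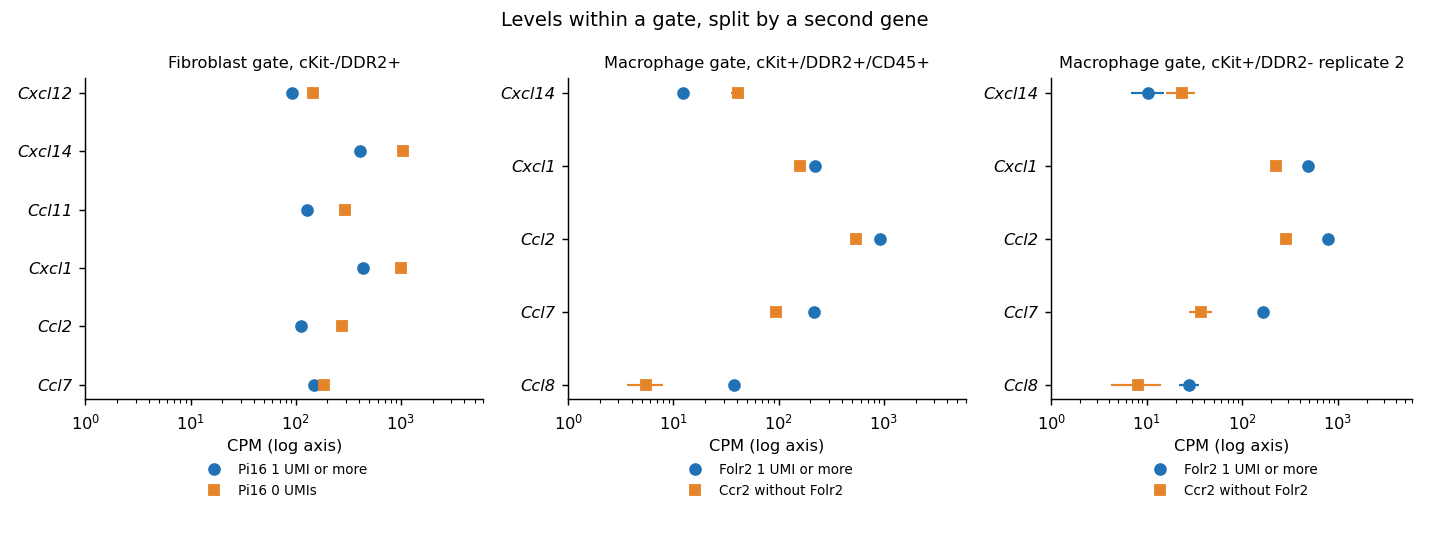
Levels in CPM, on a logarithmic axis, of cells of 1 gate split by a second gene, with 95% Poisson intervals: fibroblasts of cKit-/DDR2+ by Pi16, and macrophages of cKit+/DDR2+/CD45+ and cKit+/DDR2- replicate 2 by Folr2 and Ccr2. Each gene shown is higher in fibroblasts without Pi16. Ccl2, Ccl7, Ccl8 and Cxcl1 are higher in Folr2 macrophages than in those with Ccr2 and no Folr2, and Cxcl14 is lower.

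The neighbouring genes Ccl2 and Ccl7 were often seen in the same cells. At 5000 UMIs per cell, Ccl7 was seen in 30.1% of Ccl2-positive and 12.2% of Ccl2-negative fibroblasts of cKit-/DDR2+ (83 of 771 cells were Ccl2-positive). It was seen in 31.6% (6 of 19 cells) and 10.2% of those of replicate 2. In macrophages the shares were 32.6% and 11.96% in cKit+/DDR2+/CD45+ and 25.6% and 4.14% in replicate 2. Cxcl1 was seen in 47.1% of Ccl2-positive and 23.7% of Ccl2-negative macrophages of replicate 2, and in 36.0% and 27.7% of those of cKit+/DDR2+/CD45+. In fibroblasts of cKit-/DDR2+, 75.2% of Ccl7-positive and 51.4% of Ccl7-negative cells held Cxcl1. Nfkbia, a target of the transcription factor NF-kB, was seen in 56.6% of Ccl2-positive and 42.0% of Ccl2-negative fibroblasts of cKit-/DDR2+, with 56.0% and 41.5% for Ccl7 and 50.7% and 35.0% for Cxcl1. In fibroblasts of replicate 2 the shares were 73.7% and 50% for Ccl2, 70.6% and 50.9% for Ccl7, and 55.2% and 51.7% for Cxcl1. Of the 127 cells there, only 19 were Ccl2-positive and 17 Ccl7-positive, while 67 were Cxcl1-positive. Cells positive for any of these 3 genes thus held Nfkbia more often in both libraries, though for Cxcl1 in replicate 2 the shares were close. Nfkbiz, another NF-kB target, ran the same way except with Ccl7 in cKit-/DDR2+. There it was seen in 58.7% of Ccl7-positive and 62.5% of Ccl7-negative fibroblasts. These shares describe cells of single libraries and are not tests.

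Of the 4 members with an entry in the RefSeq table of gene starts (Cxcl12, Cxcl14, Ccl8 and Cxcl1, GRCm38.p6), Cxcl1 alone matched the consensus of NF-kB, a transcription factor of inflammatory signalling, in the 250 bases before the start, and its window is printed for that reason. The motifs searched on both strands were that consensus and TATAAA. The window is chr5:90890995-90891244 on the plus strand, with the match in capitals. It reads as a match on each strand, in 2 overlapping positions, the nearer ending 60 bases before the start.
Cxcl1: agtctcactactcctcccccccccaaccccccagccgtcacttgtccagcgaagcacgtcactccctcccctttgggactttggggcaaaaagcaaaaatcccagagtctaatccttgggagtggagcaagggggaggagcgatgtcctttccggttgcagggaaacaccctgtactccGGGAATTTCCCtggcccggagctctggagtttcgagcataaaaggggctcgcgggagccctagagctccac
Of 27025 windows of this length, 7.01% held the NF-kB consensus and 13% TATAAA. Ccl8 held TATAAA once, 26 bases before its start, and Cxcl12 and Cxcl14 held neither. No match of the 2 motifs overlapped with the other. A match is a description of letters, and binding was not measured.

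The receptor genes of these chemokines were read in the same gates. Of 11 receptor genes followed, 10 appear in the tables. Ackr3 had 303 CPM in the fibroblast gate, 152 in the capillary and 71.7 in the endocardial gate as means over libraries, and 0.342 in macrophages. Cxcr4, the signalling receptor of CXCL12, had 85.7 CPM in macrophages and 31.7 in capillary cells, where Cxcl12 itself is highest. Ccr2 (106 CPM), Ccr1 (71.9) and the atypical receptor gene Ccrl2 (366) were among those that reached 50 CPM in macrophages. Ccr3 and Cxcr2, the receptors of CCL11 and CXCL1, had at most 0.430 and 0.473 CPM in any of the 4 gates of any library used. Against macrophages of replicate 2, 1 of 5 receptor genes that passed was higher in fibroblasts (Ackr3), as 22% of all genes were, and 4 were lower (Ccr1, Ccr2, Ccrl2 and Cxcr4), beside 40.6% called in either direction. Between the macrophages of the 2 libraries 0 of 5 that passed were called, beside 1.33% of all genes. Between the fibroblasts of the 2 libraries it was 0 of 1, beside 2.16%. With so few genes, no call is close to those shares.

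Other chemokine genes were followed as a list. Of 27 listed, 25 appear in the tables, and against macrophages of replicate 2 fibroblasts were lower in 10 of 11 that passed and higher in 1, Ccl21a, beside 40.6% of all genes in either direction and 22% higher. Macrophages had 2787 CPM of Cxcl2, 1855 of Pf4, 1472 of Ccl4, 1281 of Ccl3, 652 of Ccl6 and 595 of Ccl9 as means of 2 libraries. Of the 4 gates, Ccl21a (0.365 to 9849 CPM over libraries) and Cxcl9 (8.21 to 93.0 CPM) were instead highest in the capillary gate by their means. The lymphatic gate was not read for this list. Ccl21a had 0.365 CPM in the capillary gate of cKit-/DDR2+, and 9849 and 7126 in those of cKit+/DDR2- replicates 1 and 2. There 31 of 109 and 62 of 326 capillary-gated cells held 2 or more UMIs of Mmrn1, and their part in Ccl21a was not tested. Between the fibroblasts of replicate 2 and cKit-/DDR2+, 3 of 4 were higher in replicate 2, beside 1.02% of all genes: Ccl21a (183 against 0.0883 CPM), Ccl4 (65.5 against 0.177) and Cxcl2 (52.2 against 0.353). Ccl21a is a lymphatic gene, and Ccl4 and Cxcl2 led in macrophages here. The marker sums of those cells are given above, and their part in these 3 differences was not tested. Between the macrophages of the 2 libraries 1 of 10 was called, beside 1.33% of all genes: Cxcl10, lower in cKit+/DDR2+/CD45+ (9.43 against 55.0 CPM).

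The NF-kB and interleukin 6 family list, with 7 of its 8 genes in the tables, was lower in fibroblasts than in macrophages of replicate 2 in 4 of 5 genes that passed (Cxcl2, Nfkbia, Nfkbiz and Tnfaip3) and higher in none, beside 40.6% of all genes in either direction, while Cxcl1 did not differ by 2-fold there. The 13 dissociation genes all passed in every comparison. Against macrophages, 1 was higher in fibroblasts (Egr1) and 6 were lower, with the same shares of all genes. Against capillary cells, 6 were higher, as 12.4% of all genes were, and 2 lower, as 16% were. Between fibroblasts of the 2 libraries, 2 were higher in those of replicate 2 than in those of cKit-/DDR2+ (Hspa1a and Hspa1b), beside 1.02% of all genes. Their part in the chemokine levels was not tested.

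The genes with the most similar pattern were named by Pearson's r over 12 groups of library and gate, with log2 of CPM plus 10, among 5194 genes with at least 50 CPM in a group. The groups share libraries and their free RNA, so r is a description. For Cxcl12 they were the endothelial surface gene Ly6c1 (0.994), Meox2 (0.989) and Efnb1 (0.988). For Cxcl14 they were Fam20c (0.992), Cdk5rap3 (0.983) and Lpar1 (0.983), and for Ccl11 Penk (0.9998), Myoc (0.998) and Efhd1 (0.997). For Cxcl1 they were Lgals1 (0.979), Ifi211 (0.973) and Zfp385a (0.967). For Ccl2 they were Camk1d (0.987), Fam46a (0.980) and Lsp1 (0.968), and for Ccl7 Emilin2 (0.994), Hk2 (0.994) and Apbb1ip (0.992). Ccl8 was under the minimum, and its nearest were Rnf149 (0.981), Dock10 (0.978) and Arsb (0.972). Among the 12 groups Ccl11 stood above 3.65 CPM only in the 2 fibroblast groups, so its r values rest mainly on those.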

How the data were processed

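The data were 5 droplet (10x Chromium 3' v3.1) single-cell RNA libraries of sorted mouse cardiac interstitial cells. Per the submitters' processing notes, the tools were Cell Ranger and Seurat 4.0.4 with the build mm10, and the version of Cell Ranger is not given in the sources used here. The authors deposited 1 table per library in which each value is a natural log, taken after the UMIs of a cell were brought to a total of 10000 and 1 was added, as the values themselves show. Whole UMIs were recovered from these values in 100% of cells (tolerance 0.01), so the depth of each cell is known. How multiplets were treated is not stated, no doublet caller was run, and cells with 2 or more UMIs of more than 1 gate marker entered no gate. The members, marker lists, gates and gene lists were chosen with earlier results of these data known.

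Cells with at least 500 UMIs were used, UMIs were summed per library and gate, and 190 barcodes of cKit+/DDR2+/CD45+ that repeat those of cKit+/DDR2- replicate 1 were left out. Libraries were grouped by sort as their titles give it, and the 2 cKit+/DDR2- libraries were numbered in deposit order. Log2 ratios were taken after adding 1 CPM. Intervals are exact Poisson, exact conditional binomial for ratios (without the added CPM) and Clopper-Pearson for shares, all at 95%. The genes named were the 7 members, the 3 genes nearest to each in pattern, and, of 4 lists with 59 genes (receptors, other chemokines, dissociation genes, and NF-kB and interleukin 6 family targets), those with at least 50 CPM in a group. The values of 1 receptor gene are not reported here. The split of capillary cells by Apln was added after values were seen. Code for the ratios was tested on simulated counts. Alternatives varied the gates, the scaling, the minimum, the added CPM and the cells and libraries used. Python 3.11.15, numpy 2.4.6, scipy 1.17.1, matplotlib 3.10.9 and biopython 1.88 were used. Coding sequences came from GENCODE M21 and starts from RefSeq, where 4 of 7 members matched.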

Additional observations from a re-analysis of the deposited data

Results flagged for a closer look

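Values over 50 CPM also appeared in gates that held fewer than 50 cells and entered no comparison, and each rests on few cells. In cKit-/DDR2+, 35 pericyte-gated cells (Kcnj8) had 534 CPM of Cxcl12, 126 of Cxcl14, 117 of Ccl11 and 160.3 of Cxcl1. In the same library, 12 macrophage-gated cells had 129.5 CPM of Cxcl12, of which 1 cell held 15 of 21 UMIs, 407.0 of Ccl2 and 438 of Cxcl1. In cKit+/DDR2+/CD45-, 37 fibroblast-gated cells had 113 CPM of Cxcl12, 434 of Cxcl1, 59.5 of Cxcl14 and 90.2 of Ccl8, with 27 of 31 Cxcl14 UMIs and 33 of 47 Ccl8 UMIs in single cells. In that library, 46 lymphatic cells had 226 CPM of Ccl2, with 72 of 97 UMIs in 1 cell. In cKit+/DDR2- replicate 1, 23 macrophage-gated cells had 316 CPM of Ccl2.

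In cKit+/DDR2+/CD45+, 5 pericyte-gated cells had 1004 CPM of Cxcl12. Ccl2 stood there at 89.1 CPM in 15 fibroblast-gated, 56.9 in 45 endocardial and 287 in 9 dendritic cells, and Cxcl1 at 267 CPM in the fibroblast-gated cells.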

How the results depend on the processing

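Recomputed counts of called members stayed within 1.5 times of the reported count in 172 cases and did not in 20. The share of all genes called was not recomputed under the alternatives, so the counts below have no such share beside them. Over the 52 single differences followed, 489 recomputed values stayed near the reported one, 84 moved and none changed sign after being called. Capillary cells of cKit+/DDR2+/CD45+ gave 2 called members in place of 1, against cKit+/DDR2+/CD45- and against cKit+/DDR2-, with the gate marker at 1 UMI, with the mean over cells, and with Gm42418, Lars2 and mitochondrial genes out of the total. With no minimum level they gave 4 in each, and 6 against cKit-/DDR2+ in place of 2. With no minimum, the other capillary counts were 3 (cKit+/DDR2+/CD45- against cKit-/DDR2+, in place of 0), 1 (cKit+/DDR2+/CD45- against cKit+/DDR2-, in place of 0) and 3 (cKit+/DDR2- against cKit-/DDR2+, in place of 1), and the endocardial count was 1 in place of 0. With gates of 30 cells allowed, 2 members in place of 4 were higher in fibroblasts than in capillary cells and 3 in place of 5 than in endocardial cells, since a library with 37 fibroblasts then entered. Over whole libraries, cKit+/DDR2+/CD45- against cKit+/DDR2- gave 1 in place of 2 with the mean over cells, with the reduced total and with 10 CPM added. The cause of the other changes was not tested. Leaving out a cKit+/DDR2- library gave 1 (without replicate 2) to 3 (without replicate 1) called members in that comparison and 0 to 1 (without replicate 2) in its capillary counterpart. The fibroblast and macrophage comparisons between sorts rest on replicate 2 and gave no value without it, nor did comparisons with cKit-/DDR2+ without its library, or capillary cells of cKit+/DDR2+/CD45+ with 3 UMIs of the marker. The smallest depth is that of capillary cells of cKit+/DDR2+/CD45+ (444289 UMIs), where 3 counts come to 6.75 CPM. No paired analysis was possible because the sorts share only the replicate number 1, which pairs no libraries, and no test was run.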
